A study of Mus musculus with 20 samples.

Results

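Interferon-stimulated genes are the transcripts that cells raise on sensing interferon, and the set described here holds 39 of them chosen by name, with the Oas family of 2'-5'-oligoadenylate synthetases kept out. On the array 38 of the 39 names have a probe and Dtx3l has none. The array name Ifi27 turned out to stand for Ifi27l2a in the current RefSeq naming, and the current Ifi27 is printed on the array as D12Ertd647e, so both genes were kept. Ifi44 did not reach the level set for testing, which left 38 genes out of 17116 genes tested on the whole array. Where a gene had several probes, the brightest one flagged by the scanner as clearly above background on 5 or more of the 20 arrays stands for it.

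RNA came from natural killer (NK) cells, innate lymphocytes that kill infected or transformed cells, taken from the spleens of 20 male C57BL/6 mice by magnetic removal of the other cells, and each mouse had an array of its own with a single dye. There were 4 groups of 5 mice: ptaquiloside (5.3 mg/kg) with selenium (1.3 mg/kg), ptaquiloside alone (5.3 mg/kg), selenium alone (1.3 mg/kg), and a control group given water, each by daily gavage over 14 days. Ptaquiloside is a carcinogen of bracken fern, and selenium is an essential trace element. Each of the 5 slides carried the 4 mice of 1 number, and every group sat at 1 fixed place on it, so the place on the slide and the treatment cannot be told apart.

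Type I interferon binds a receptor that activates the kinases JAK1 and TYK2. These lead to assembly of the factor ISGF3, which contains STAT2 and IRF9 and binds interferon-stimulated response elements (ISRE) beside many interferon-stimulated genes. Interferon gamma, which NK cells themselves secrete, acts mainly at a different element and raises part of the same genes, such as those of antigen processing and the guanylate-binding proteins. Type I interferon is a well known activator of NK cells.

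RefSeq promoter windows (build GRCm38.p6, 250 bases before to 50 after the gene start) were at hand for 28 of the 38 tested members, and 13 of the 28 (46.4%) hold the ISRE core GAAANNGAAA on either strand, against 3.79% of the 11214 tested genes with a window. The 13 genes are Ifih1, Ddx58, Stat2, Isg15, Ifit1, Ifit3, Rsad2, Eif2ak2, Bst2, Ifitm3, Gbp2, Gbp3 and Cxcl10. The members with no window were Dhx58, Zbp1, Usp18, Mx1, Mx2, Parp9, Parp14, Rtp4, Ifi27 and Ifi27l2a. Stretches of 140 bases, from 160 to 21 bases before the gene start, are shown for 6 members because they hold the element through which ISGF3 is known to act. They run 5' to 3' along the gene's own strand, and capitals mark GAAANNGAAA or its reverse complement TTTCNNTTTC, with overlapping matches joined into 1 run.
Isg15, chr4:156200839-156200978, minus strand, 3 matches: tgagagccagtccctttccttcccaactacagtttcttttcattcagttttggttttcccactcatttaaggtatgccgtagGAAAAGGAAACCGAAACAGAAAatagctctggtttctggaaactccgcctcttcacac
Bst2, chr8:71537493-71537632, minus strand, 2 matches: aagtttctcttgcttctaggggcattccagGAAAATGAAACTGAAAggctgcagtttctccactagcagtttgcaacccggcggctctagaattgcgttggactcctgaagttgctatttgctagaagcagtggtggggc
Ifit1, chr19:34640729-34640868, plus strand, 2 matches: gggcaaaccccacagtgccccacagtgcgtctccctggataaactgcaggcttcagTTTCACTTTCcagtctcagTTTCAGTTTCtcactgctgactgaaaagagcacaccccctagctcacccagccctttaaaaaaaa
Ifit3, chr19:34583369-34583508, plus strand, 2 matches: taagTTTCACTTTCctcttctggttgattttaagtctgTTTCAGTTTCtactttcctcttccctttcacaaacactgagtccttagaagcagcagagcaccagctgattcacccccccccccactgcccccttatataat
Rsad2, chr12:26456473-26456612, minus strand, 1 match: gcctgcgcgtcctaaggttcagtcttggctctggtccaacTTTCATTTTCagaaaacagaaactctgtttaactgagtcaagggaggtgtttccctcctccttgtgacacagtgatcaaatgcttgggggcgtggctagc
Gbp3, chr3:142559884-142560023, plus strand, 2 matches: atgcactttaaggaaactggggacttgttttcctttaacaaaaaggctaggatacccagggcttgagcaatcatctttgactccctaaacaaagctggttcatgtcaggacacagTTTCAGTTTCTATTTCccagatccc
In selenium mice against controls the 13 members with the ISRE letters had a median log2 difference of 0.31, the 15 with a window lacking them 0.32 and the 10 with no window 0.53. In mice given ptaquiloside with selenium against selenium alone the medians of the same sets were -0.51, -0.33 and -0.45. These matches describe the windows and say nothing of binding.

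All signals below are log2 values relative to the 75th percentile of their array, and differences are log2 differences between group means of 5 mice. Levels are set side by side only for the same gene, since probes differ in brightness. The 75th percentile was 45.5 to 133 scanner units on 19 arrays and 10.5 on the array of ptaquiloside mouse 4, which correlated with the others at 0.628 to 0.757, against 0.936 to 0.990 among the other 19. On that dim array bright genes were compressed, and results that include ptaquiloside alone are given with and without it. The errors in every comparison come from a fit to all 20 arrays, so that array enters them too. NK markers Ncr1 and Klrb1c were well above background on all 20 arrays. Of the 38 members, 23 were well above background on all 20 arrays and 37 on at least 18.

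The plainest feature of the members was a higher signal in 3 of the 5 mice given selenium alone. The score of a mouse, the mean over the 38 genes after each gene's 20-array mean was subtracted, was -0.16, 0.71, 0.53, 0.77 and -0.14 in selenium mice 1 to 5, against -0.13, 0.23, 0.07, -0.04 and -0.35 in control mice 1 to 5. Selenium mice 2, 3 and 4 stood above every control mouse, and selenium mice 1 and 5 lay within the control range. In mice given ptaquiloside with selenium the scores were -0.19, 0.18, -0.23, -0.20 and -0.16, and in mice given ptaquiloside alone they were 0.11, 0.32, -0.07, -1.10 and -0.14. Ptaquiloside mouse 2 scored above the highest control mouse, and the dim array of ptaquiloside mouse 4 scored far below the lowest. The mean scores were -0.12 ± 0.17 for the combination, -0.17 ± 0.55 for ptaquiloside, 0.34 ± 0.46 for selenium and -0.05 ± 0.22 for control (SD, n = 5 each). In such preparations a larger share of expressing cells and more RNA per cell cannot be told apart.

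**Figure D1:**
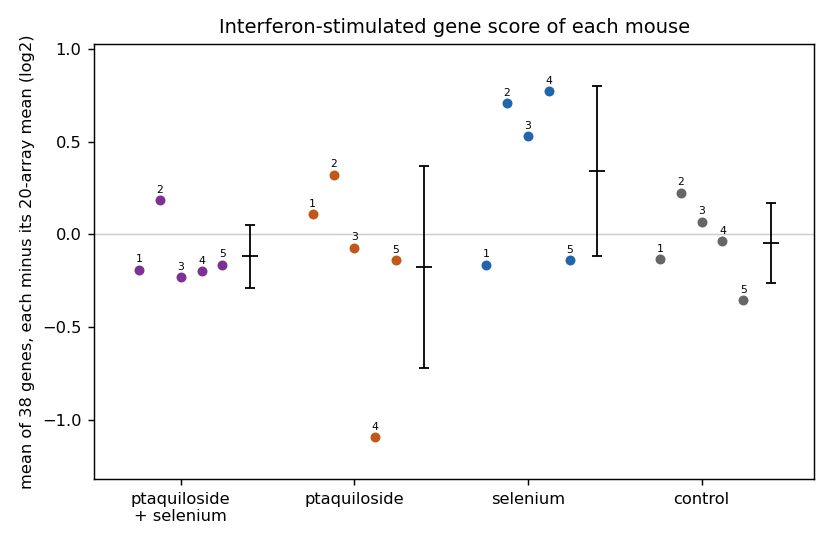
Score of each mouse over 38 interferon-stimulated genes (y axis, log2, each gene minus its mean over 20 arrays) by group (x axis); points are mice labelled with their number, and the black mark with bars is the mean ± SD of 5 mice. Selenium mice 2, 3 and 4 lie at 0.53 to 0.77, above the highest control mouse at 0.23, and ptaquiloside mouse 4 lies at -1.10.

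Counted gene by gene, 28 of the 37 members measured in selenium mouse 2 lay above all 5 control mice, against 24.8% of all genes on that array. The count was 24 of 38 in selenium mouse 3, against 16% of all genes, and 28 of 38 in selenium mouse 4, against 26.1%. In selenium mouse 1 only 1 member lay above all controls and 10 lay below them, against 13% and 19.8% of all genes, and in selenium mouse 5 there were 5 above and 5 below, against 14.1% and 15%. No mouse given ptaquiloside with selenium had more than 10 members above all controls, and that highest count was in mouse 5 of the group, where 41.7% of all genes were above them. Among mice given ptaquiloside alone the highest count was 11 of 38, in mouse 2, against 8.67% of all genes, and ptaquiloside mouse 3 had 16 of 38 members below all controls, against 18.2% of all genes.

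**Figure D2:**
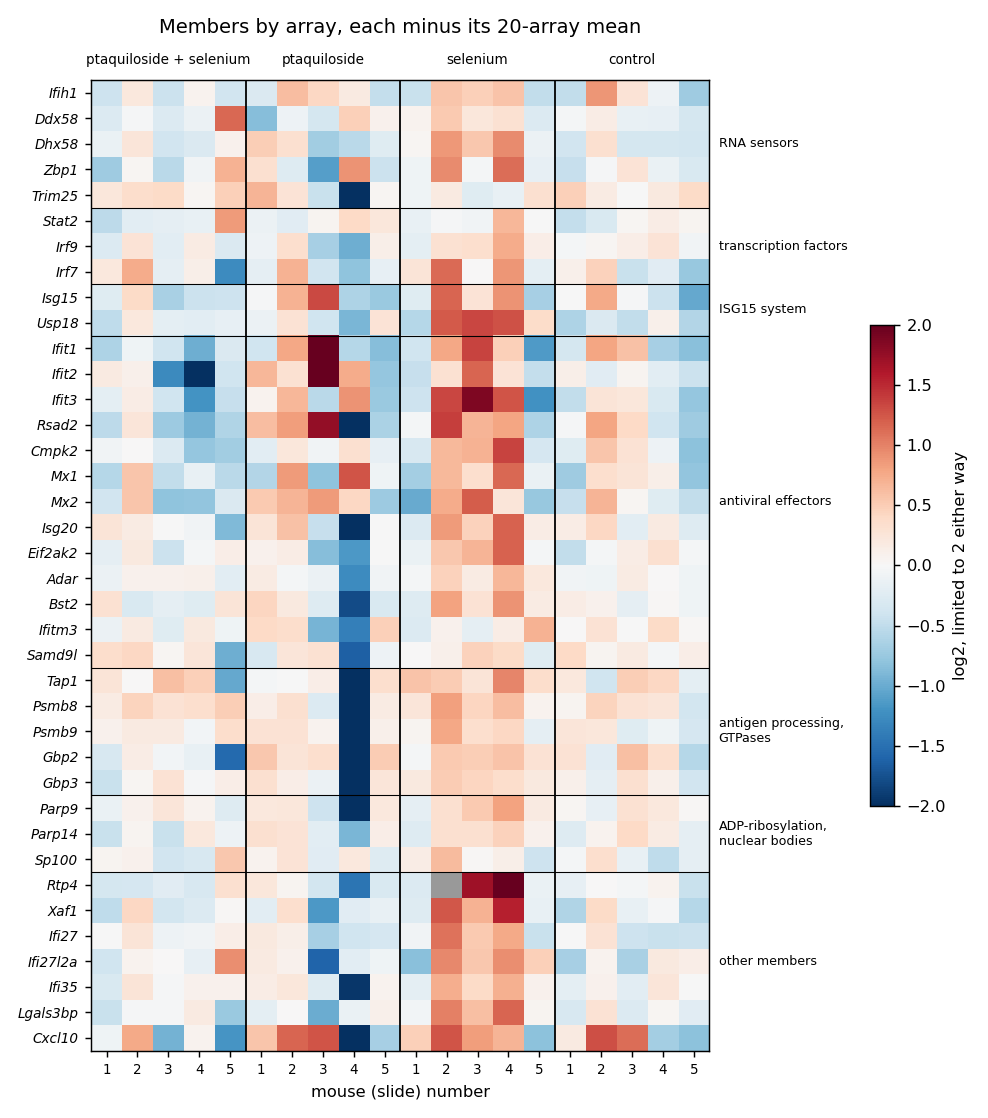
Signal of the 38 tested members (rows, grouped by role) on the 20 arrays (columns, by group and mouse number), as log2 minus the gene's 20-array mean; red is higher and blue lower, colours stop at 2 either way, and grey is a spot left out as an outlier. Selenium mice 2, 3 and 4 are red across most rows, and ptaquiloside mouse 4 is blue for antigen-processing genes and GTPases.

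Selenium against control asked what the element alone did to the NK cell preparation. Of the 38 members, 35 had a higher mean with selenium and 3 a lower one, with a median difference of 0.35, against 53% of all genes higher and a median of 0.02 over the 17116 genes. None passed limma's test after Benjamini-Hochberg adjustment over all genes, where 0% of all genes were called, and the smallest adjusted p among members was 1.00. At an unadjusted p under 0.05 there were 6 members (15.8%), all higher, against 1.08% of all genes, with 0.415% higher at that p. The 6 were Usp18, Rtp4, Xaf1, Dhx58, Lgals3bp and Ifi27. Without the array of ptaquiloside mouse 4, which enters only through the shared error, there were 8, with Adar and Gbp3 added, against 2.65% of all genes. No member separated the groups completely, while 0.502% of all genes did so.

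On single slides the member medians for selenium minus control were -0.0035 on slide 1, 0.53 on slide 2, 0.34 on slide 3, 0.70 on slide 4 and 0.23 on slide 5. The members higher with selenium numbered 18 of 38, 33 of 37, 30 of 38, 36 of 38 and 28 of 38 in that slide order, against 47.4%, 57%, 54.4%, 55.8% and 46.4% of all genes. There were 10 members higher on every slide, namely Usp18, Dhx58, Xaf1, Lgals3bp, Irf7, Ddx58, Adar, Mx1, Gbp3 and Psmb8, whereas 5.47% of all genes were higher on every slide. Slide 1 was thus the exception among the 5, with members split evenly. On slide 5 selenium mouse 5, with a score of -0.14 inside the control range, was set against control mouse 5, the lowest control at -0.35.

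The ISG15 system held the member with the largest difference. Usp18 (probe at chromosome 6, 121220513 to 121220572, plus strand, build mm9) encodes the protease that removes ISG15 from proteins and that also dampens signalling at the type I interferon receptor. Its signal was -1.20, 0.59, 0.71, 0.64 and -0.27 in selenium mice 1 to 5, against -1.25, -0.92, -1.12, -0.52 and -1.21 in control mice. The 4 selenium mice other than mouse 1 were above every control. The difference was 1.10 ± 0.33 (SE), a 2.14-fold ratio, with an adjusted p of 1.00 from limma. In mice given both compounds Usp18 was -1.13, -0.42, -0.82, -0.84 and -0.79, against -0.75, -0.34, -1.02, -1.55 and -0.35 with ptaquiloside alone, so neither group reached the level of selenium mice 2, 3 and 4.

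Isg15 (chromosome 4, 155573922 to 155573981, minus strand), the ubiquitin-like modifier itself and 1 of the genes whose promoter letters are printed above, had a wider spread. It was 1.35, 2.77, 1.87, 2.49 and 0.94 in selenium mice, against 1.58, 2.36, 1.57, 1.17 and 0.58 in control mice, a difference of 0.43 ± 0.42 (SE). Only selenium mice 2 and 4 exceeded the highest control, which was control mouse 2. Isg15 was 1.36, 1.98, 0.95, 1.18 and 1.18 with both compounds, against 1.58, 2.30, 2.92, 0.98 and 0.86 with ptaquiloside alone. The highest single value of Isg15 was therefore in ptaquiloside mouse 3, whose score over all members was -0.07.

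Among the cytoplasmic RNA and DNA sensors, counted together with the ubiquitin ligase gene Trim25, 4 of 5 genes were higher in selenium mice, all but Trim25. Dhx58 (chromosome 11, 100556271 to 100556330, minus strand), which encodes LGP2, a helicase that tunes RIG-I-like receptor signalling, was 0.27, 1.10, 0.78, 1.17 and 0.11 with selenium, against -0.15, 0.55, -0.11, -0.12 and -0.14 in control. Selenium mice 2, 3 and 4 were above every control, and control mouse 2 stood apart from the other controls. The difference was 0.68 ± 0.27 (SE, adjusted p = 1.00, limma), and Dhx58 was higher on 5 of 5 slides. With both compounds it was 0.10, 0.47, -0.14, -0.06 and 0.32, against 0.72, 0.55, -0.47, -0.31 and -0.01 with ptaquiloside alone. These 2 groups overlapped throughout.

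Ifih1 (chromosome 2, 62435621 to 62435680, minus strand) encodes MDA5, the sensor of long double-stranded RNA, and it differed little. Its values were -0.41, 0.59, 0.51, 0.60 and -0.47 in selenium mice, against -0.46, 0.92, 0.31, -0.07 and -0.68 in control mice. The difference of 0.16 ± 0.32 (SE) is under its own error, and the highest value belonged to control mouse 2. In mice given both compounds Ifih1 was -0.39, 0.24, -0.39, 0.11 and -0.36, against -0.26, 0.66, 0.44, 0.22 and -0.45 with ptaquiloside alone. Mice 1 and 5 were the lowest of their group in selenium, control and ptaquiloside mice alike.

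Of the other sensors, Ddx58 (RIG-I) differed by 0.28 ± 0.28 (SE) between selenium and control and Zbp1, the Z-form nucleic acid sensor, by 0.48 ± 0.36 (SE). Trim25, the ubiquitin ligase that assists RIG-I, was lower by the fit, at 4.17 ± 0.24 with selenium and 4.40 ± 0.19 in control (SD, n = 5 each), with a difference of -0.23 ± 0.49 (SE). It was the member farthest below 0 in this comparison. The 4 probes of Ddx58 that passed the background filter gave 0.01 to 0.39, so the size for this gene depends on the probe.

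All 3 transcription factors that carry the interferon signal had higher means with selenium, with Irf7 differing most. Irf7 (chromosome 7, starting at 148450664, minus strand), the factor that amplifies type I interferon production, was 2.78, 3.66, 2.52, 3.40 and 2.32 in selenium mice, against 2.62, 2.99, 2.08, 2.29 and 1.76 in control mice. It was higher on 5 of 5 slides, by 0.59 ± 0.37 (SE), but the groups overlapped. With both compounds it was 2.73, 3.26, 2.34, 2.63 and 1.26, against 2.34, 3.21, 2.14, 1.72 and 2.35 with ptaquiloside alone. The lowest of these, mouse 5 of the combination, belongs to the array with the second lowest 75th percentile.

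Stat2 (chromosome 10, 127729181 to 127729240, plus strand), a subunit of ISGF3, was 0.93, 1.05, 1.00, 1.74 and 1.06 in selenium mice, against 0.61, 0.77, 1.12, 1.23 and 1.13 in control mice, a difference of 0.18 ± 0.24 (SE). Only selenium mouse 4 was above the highest control. Stat2 was 0.55, 0.87, 0.90, 0.93 and 1.93 with both compounds, against 0.95, 0.84, 1.13, 1.47 and 1.31 with ptaquiloside alone. Irf9, the DNA-binding subunit of ISGF3, differed by 0.20 ± 0.24 (SE) between selenium and control. The differences of Stat2 and Irf9 were smaller than their errors.

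Of 13 antiviral effectors, 11 were higher with selenium, with a median of 0.38 and none at an unadjusted p under 0.05. Ifit3, an RNA-binding tetratricopeptide protein whose promoter carries 2 of the ISRE matches printed above, averaged -0.62 ± 1.31 with selenium and -1.40 ± 0.45 in control (SD, n = 5 each), the widest gap of the 13 at 0.78 ± 0.49 (SE). Its neighbours in the chromosome 19 cluster, where the 3 probes lie between 34650244 and 34723855, differed by 0.31 ± 0.59 (SE, Ifit1) and 0.30 ± 0.49 (SE, Ifit2). The large spread of Ifit3 came from selenium mice 2, 3 and 4 at 0.15, 0.68 and 0.07 and mice 1 and 5 at -1.60 and -2.39, below every other selenium mouse.

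Ifit2 (chromosome 19, 34650244 to 34650303, plus strand), which binds viral RNA like its relatives, had the largest difference between the groups that received ptaquiloside. It was -3.34, -3.41, -4.78, -5.50 and -3.91 with both compounds, against -2.85, -3.20, -1.17, -2.76 and -4.29 with ptaquiloside alone. The difference was -1.33 ± 0.49 (SE, adjusted p = 0.820, limma), and Ifit2 was lower with both compounds on 4 of 5 slides. In selenium mice it was -3.97, -3.21, -2.34, -3.24 and -3.99, against -3.40, -3.74, -3.45, -3.72 and -3.94 in control mice. The probe was dim, well above background on 2 of 5 arrays of the combination, 3 of 5 of ptaquiloside, 4 of 5 of selenium and 5 of 5 of control, so its lowest values have little support.

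Rsad2 (viperin) and Cmpk2 lie next to each other on chromosome 12 and act on nucleotides, viperin by making a chain-terminating ribonucleotide and Cmpk2 as a mitochondrial kinase. Cmpk2 (27164119 to 27164178, plus strand) was -2.40, -1.43, -1.38, -0.72 and -2.42 in selenium mice, against -2.32, -1.52, -1.79, -2.18 and -2.89 in control mice, a difference of 0.47 ± 0.32 (SE). Only selenium mice 2, 3 and 4 exceeded the highest control. With both compounds Cmpk2 was -2.15, -2.07, -2.36, -2.85 and -2.78, against -2.29, -1.85, -2.14, -1.76 and -2.24 with ptaquiloside alone. Rsad2 differed by 0.43 ± 0.57 (SE) between selenium and control.

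The GTPase genes Mx1 and Mx2, neighbours on chromosome 16, differed by 0.42 ± 0.41 (SE) and 0.18 ± 0.41 (SE) between selenium and control. Laboratory strains such as C57BL/6 carry defective Mx1 alleles, so the transcript does not stand for a working protein. The exonuclease gene Isg20 differed by 0.42 ± 0.44 (SE), the kinase gene Eif2ak2 (PKR) by 0.47 ± 0.29 (SE), the RNA-editing gene Adar by 0.31 ± 0.23 (SE) and the tetherin gene Bst2 by 0.38 ± 0.33 (SE). Ifitm3, which blocks viral entry, and Samd9l, a growth-restraining antiviral factor, differed by -0.05 ± 0.31 (SE) and -0.00 ± 0.33 (SE). The differences of the effectors varied, but their errors overlap.

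Genes of antigen processing and the guanylate-binding proteins were all higher with selenium, by narrow margins from 0.28 to 0.42. Tap1, the peptide transporter, differed by 0.42 ± 0.59 (SE), the immunoproteasome subunits Psmb8 and Psmb9, which flank it on chromosome 17, by 0.30 ± 0.68 (SE) and 0.32 ± 0.42 (SE), and Gbp2 and Gbp3 on chromosome 3 by 0.28 ± 0.42 (SE) and 0.34 ± 0.36 (SE). The score of these 5 genes was 0.20, 0.63, 0.39, 0.59 and 0.14 in selenium mice, against 0.18, -0.03, 0.29, 0.20 and -0.37 in control mice. The errors are shared by all 20 arrays and include ptaquiloside mouse 4, where the same score was -3.15, against 0.03 to 0.27 in the other ptaquiloside mice. The partners in ADP-ribosylation Parp9 and Parp14 and the nuclear body gene Sp100 differed by 0.25 ± 0.37 (SE), 0.15 ± 0.24 (SE) and 0.20 ± 0.23 (SE), and the 3 probes of Sp100 gave -0.30 to 0.28.

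The remaining members held 4 of the 6 genes at an unadjusted p under 0.05. Rtp4 (chromosome 16, 23613668 to 23613727, plus strand), a receptor transporter protein that also acts against viruses, was 0.96, 2.94, 3.29 and 1.11 in selenium mice 1, 3, 4 and 5, with the spot of mouse 2 left out as an outlier by the scanner software, against 1.08, 1.24, 1.21, 1.31 and 0.79 in control mice. Selenium mice 3 and 4 stood far above the 5 controls and mice 1 and 5 among them. The difference was 0.95 ± 0.43 (SE, adjusted p = 1.00, limma) over 4 selenium and 5 control mice. With both compounds Rtp4 was 0.89, 0.91, 1.01, 0.91 and 1.55, against 1.47, 1.29, 0.87, -0.22 and 0.93 with ptaquiloside alone.

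Xaf1 (chromosome 11, 72120129 to 72122142, plus strand), a pro-apoptotic partner of XIAP, was -1.06, 0.44, -0.10, 0.75 and -0.96 in selenium mice, against -1.40, -0.42, -0.96, -0.84 and -1.38 in control mice. It was higher on 5 of 5 slides, by 0.81 ± 0.35 (SE, adjusted p = 1.00, limma). With both compounds it was -1.32, -0.39, -1.18, -1.07 and -0.78, against -1.02, -0.46, -1.96, -1.03 and -0.96 with ptaquiloside alone. Selenium mice 2, 3 and 4 were the 3 mice above the highest control.

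Lgals3bp (chromosome 11, 118254070 to 118254129, minus strand), a secreted glycoprotein that binds galectin-3, was 3.74, 4.81, 4.39, 4.96 and 3.85 in selenium mice, against 3.48, 4.08, 3.53, 3.83 and 3.57 in control mice. It was higher on 5 of 5 slides, by 0.65 ± 0.27 (SE, adjusted p = 1.00, limma). It was 3.35, 3.78, 3.77, 3.97 and 3.06 with both compounds, against 3.60, 3.81, 2.80, 3.66 and 3.90 with ptaquiloside alone. Again selenium mice 2, 3 and 4 exceeded the highest control.

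Ifi27 (chromosome 12, 104678353 to 104678412, plus strand), a small mitochondrial membrane protein, was 3.51, 4.67, 4.10, 4.33 and 3.14 in selenium mice, against 3.57, 3.86, 3.17, 3.12 and 3.15 in control mice, a difference of 0.57 ± 0.27 (SE, adjusted p = 1.00, limma) that was positive on 3 of 5 slides. It was 3.56, 3.84, 3.47, 3.50 and 3.71 with both compounds, against 3.78, 3.70, 2.92, 3.17 and 3.25 with ptaquiloside alone. Its neighbour Ifi27l2a differed by 0.60 ± 0.38 (SE), and its 3 probes gave 0.50 to 0.60. Ifi35, a cytoplasmic partner of Nmi, differed by 0.36 ± 0.33 (SE), and Cxcl10, the chemokine ligand of CXCR3, by 0.27 ± 0.83 (SE).

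**Figure D3:**
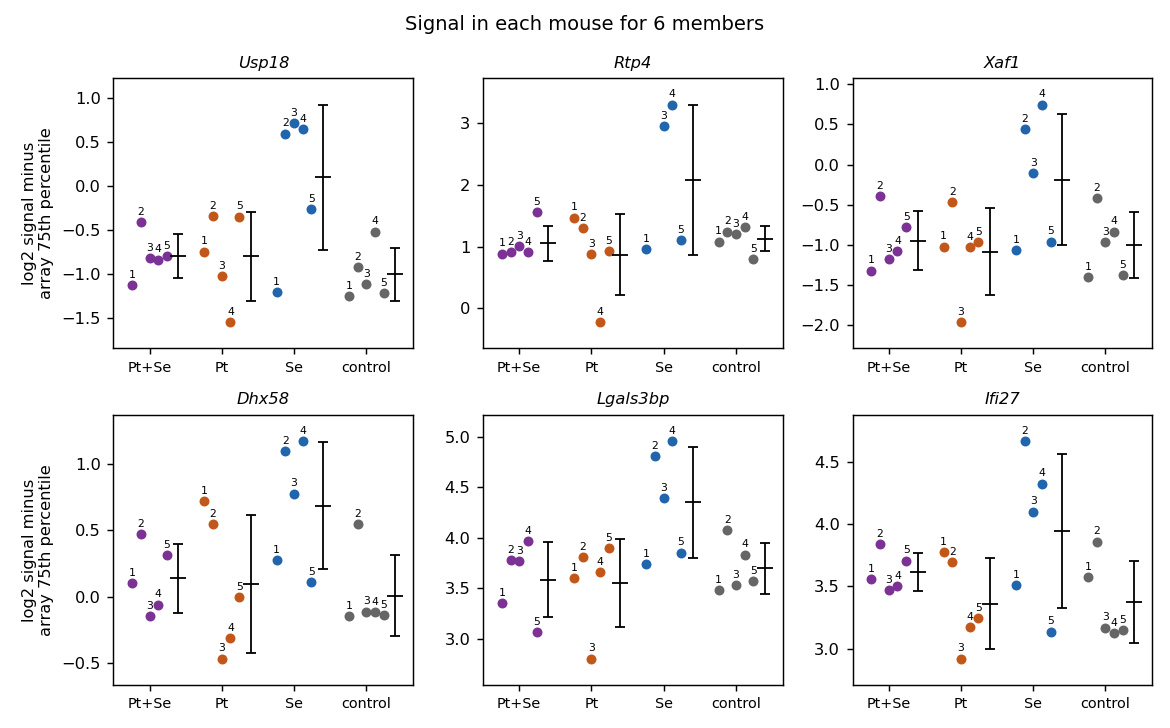
Log2 signal minus the array's 75th percentile (y axis) in each mouse for the 6 members with an unadjusted p under 0.05 in selenium against control; points are mice with their number, black marks are the mean ± SD, and Pt+Se, Pt and Se stand for ptaquiloside with selenium, ptaquiloside alone and selenium alone. Selenium mice 3 and 4 lie above all controls in every panel, selenium mouse 2 does so in the 5 panels where it has a value, and selenium mouse 1 lies inside the control range in all 6.

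Ifi44 was below the filter for testing and is described only. Of its 2 probes, the one brightest over all arrays was well above background in selenium mice 2, 3 and 4 and on none of the arrays of the other groups. Its signal was -5.49, -2.51, -3.50, -1.98 and -4.88 in selenium mice, against -5.13, -4.97, -4.89, -5.44 and -6.25 in control mice. With 3 of 5 selenium arrays measured, the mean over all 5 was 1.67-fold the bound for control, which is the mean over control arrays of the lowest signal there well above background. Selenium values not well above background enter that mean as read, so the ratio is not a lower limit. The mice in which it was detected are the 3 with high member scores.

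Ptaquiloside with selenium against selenium alone asked what the toxin did in mice that also received selenium. The members were lower with both compounds for 37 of 38 genes, with a median of -0.45, against 49.8% of all genes higher and a median of -0.00 over all genes. Trim25 was the 1 member that was higher, by 0.29 ± 0.49 (SE). None passed limma's adjusted test, where 0% of all genes were called. At an unadjusted p under 0.05 there were 5 members (13.2%), all lower, against 0.59% of all genes, with 0.24% lower at that p. They were Lgals3bp at -0.76 ± 0.27, Usp18 at -0.89 ± 0.33, Cmpk2 at -0.77 ± 0.32, Rtp4 at -1.02 ± 0.43 and Xaf1 at -0.76 ± 0.35 (SE, adjusted p = 1.00 for each, limma).

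The 5 selenium mice enter this comparison too, so it shares their spread with the one against control. On single slides 17 of 38 members were higher with both compounds on slide 1, 3 of 37 on slide 2, 2 of 38 on slide 3, 2 of 38 on slide 4 and 21 of 38 on slide 5, against 47.8%, 45.1%, 43.8%, 42.8% and 61% of all genes. Slides 2, 3 and 4 are those of the 3 selenium mice with high scores. There were 9 members lower on every slide, namely Lgals3bp, Irf7, Irf9, Gbp2, Gbp3, Adar, Parp14, Ifi35 and Cxcl10, against 2.51% of all genes lower on every slide. Of the other members given per mouse, Isg15 differed by -0.56 ± 0.42, Irf7 by -0.49 ± 0.37, Ifih1 by -0.32 ± 0.32 and Stat2 by -0.12 ± 0.24 (SE). Without selenium mouse 4 or without selenium mouse 3 the members at an unadjusted p under 0.05 numbered 2, against 0.415% and 0.526% of all genes. Without mouse 4 of the combination they also numbered 2, against 0.888% of all genes. Without the array of ptaquiloside mouse 4, which enters only through the shared error, they numbered 10, against 1.71% of all genes.

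**Figure D4:**
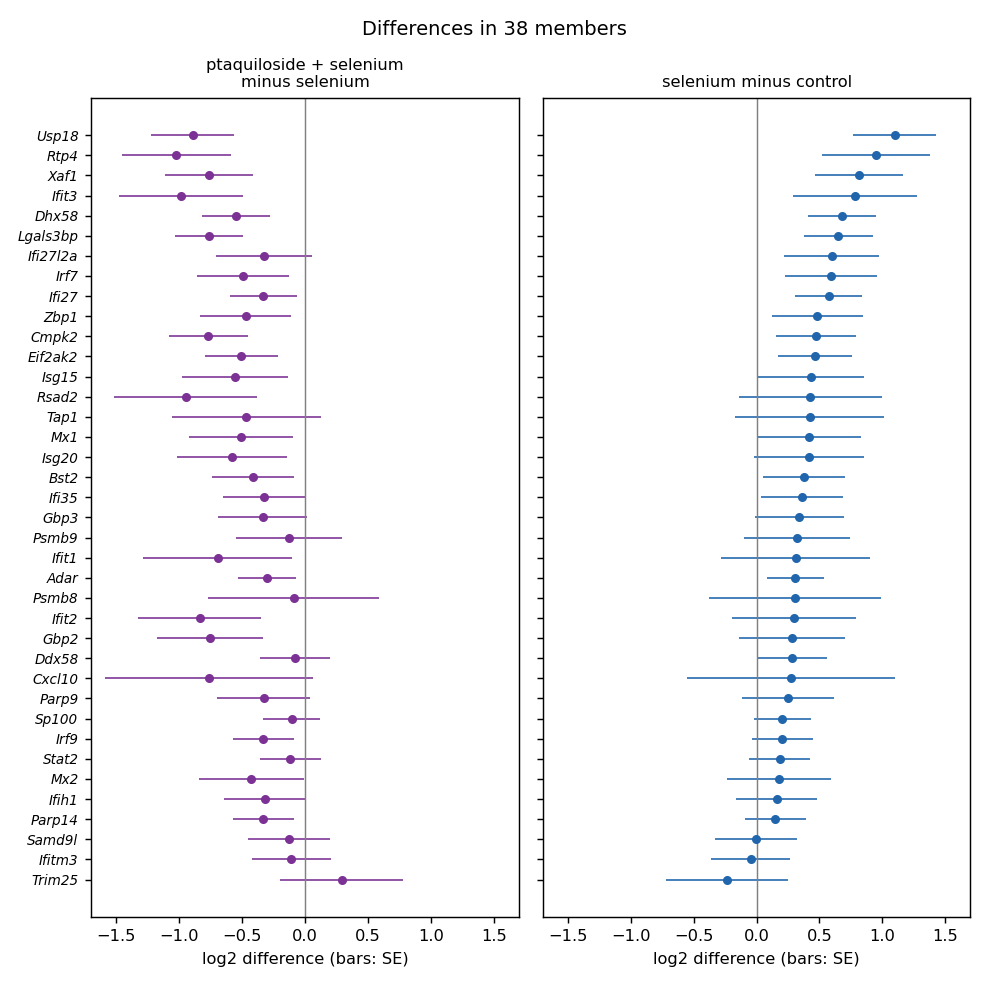
Log2 differences with SE bars (x axis) for the 38 tested members (y axis, ordered by the right panel), for ptaquiloside with selenium minus selenium (left) and selenium minus control (right). In the left panel 37 genes lie below 0 and in the right panel 35 lie above 0; the 2 panels share the 5 selenium mice, with opposite sign.

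Ptaquiloside with selenium against control showed members on both sides of 0, with 16 higher and 22 lower and a median of -0.06, against 54.6% of all genes higher. None passed the adjusted test and none had an unadjusted p under 0.05, against 0% and 0.234% of all genes. The difference in mean score was -0.07. On 4 of the 5 slides the combination had the lower score. Usp18 differed from control by 0.21 and Rtp4 by -0.07, so the genes that stood out with selenium alone did not stand out here.

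Ptaquiloside alone against control depended on the array of mouse 4. With it 15 of 38 members were higher and the median was -0.13, against 49.6% of all genes higher, and without it 23 were higher and the median was 0.04, against 49.9% of all genes higher. No member passed limma's adjusted test or an unadjusted p of 0.05 either way, against 0% and 1.48% of all genes with that array. With that array the difference farthest from 0 was in Psmb8, which was 4.27, 4.45, 3.86, -0.79 and 4.30 in ptaquiloside mice, against 4.18, 4.57, 4.42, 4.37 and 3.76 in control mice. Its difference of -1.04 ± 0.68 (SE) became -0.04 without ptaquiloside mouse 4. On that array the 28 members brighter than the median gene were lower than in the other 3 mice of slide 4 by a median of -1.56 and the 10 dimmer ones by -0.02, against -1.22 for all brighter and 1.92 for all dimmer genes.

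Ptaquiloside with selenium against ptaquiloside alone gave 24 of 38 members higher with a median of 0.14, against 51.1% of all genes higher, and 12 higher with a median of -0.06 without ptaquiloside mouse 4, against 52.5% of all genes. The sign of the summary therefore turned with 1 array. Ifit2, lower by 1.33 as described above, was the 1 member at an unadjusted p under 0.05, against 2.38% of all genes, and its difference was -1.31 without that array. Without it there were 3 such members, Gbp2, Ifit2 and Rsad2, all lower, against 2.77% of all genes. Psmb8 differed by 1.26 ± 0.68 (SE) with the array and by 0.26 without it. No member was called after adjustment, where 0% of all genes were.

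The interaction asks whether the selenium difference was the same in mice that received ptaquiloside as in those that did not. It was below 0 for 30 of 38 members with a median of -0.26, against 51.5% of all genes above 0, and for 36 of 38 with a median of -0.45 without ptaquiloside mouse 4, against 48.7% of all genes above 0. None passed limma's adjusted test, where 0% of all genes did. At an unadjusted p under 0.05 there were 2 members, Usp18 at -1.10 ± 0.47 and Ifit2 at -1.63 ± 0.69 (SE), against 1.18% of all genes, and both have an adjusted p of 0.997 or more from limma. Without ptaquiloside mouse 4 there were 5, namely Gbp2, Gbp3, Ifit2, Rsad2 and Usp18, all below 0, against 2.27% of all genes. Usp18, Xaf1 and Ifih1 were below 0 on 5 of 5 slides, and the share of all genes for which this holds was not computed. Among the 4 groups together 0 members were called by limma, as were 0% of all genes.

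Other genes of the pathway were set beside the members. The Oas family, with 6 of 8 listed genes tested, had scores of -0.30, 1.27, 0.77, 1.42 and 0.09 in selenium mice, against -0.56, 0.27, -0.14, 0.01 and -0.54 in control mice, high in the same 3 selenium mice. In selenium against control, Oas3 differed by 1.19, Oas2 by 1.13, Oas1a by 1.00 and Oasl2 by 0.97. Of the 6 tested Oas genes 4 had an unadjusted p under 0.05 and 0 were called, against 1.08% and 0% of all genes. A further list of 47 tested interferon-stimulated genes had 37 higher and 10 lower with selenium, a median of 0.24, 0 called and 0 at an unadjusted p under 0.05, and it had 2 higher and 45 lower in the combination against selenium alone. The 4 with the smallest p in that list were Parp12 at 0.61, Mlkl, the effector of necroptosis, at 0.66, Iigp1, an immunity-related GTPase, at 0.89, and Nmi, the partner of Ifi35, at 0.32.

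The steps upstream of these genes had medians near 0. Of 17 receptor, kinase and Jak-Stat genes 9 were higher and 8 lower with selenium, with a median of 0.01 and 0 at an unadjusted p under 0.05. Tyk2 differed by 0.33, Socs1 by 0.27 and Ifngr1 by 0.11. Of 15 tested adaptors and kinases of interferon induction 7 were higher and 8 lower, with Tbk1 and Tlr7 at -0.49 each, Irf8 at 0.28 and Irf3 at 0.18. Among 8 tested interferon genes 2 were higher and 6 lower, and Ifng, at 5.97 ± 0.76 in selenium mice and 5.43 ± 0.94 in control mice (SD, n = 5 each), differed by 0.54. Ifnb1 differed by -0.49, Ifna9 by -0.26 and Ifna2 by -0.08, and the Ifnb1 spot exceeded background in 4 of 5 selenium and 4 of 5 control mice.

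Markers of other cells and of division also varied between selenium and control mice, and their part in the result was not tested. All 17 NK cell markers were higher with selenium, with a median of 0.22 and a summed signal of 677 to 1070, against 540 to 911 in control mice, in units of the array's 75th percentile. All 20 cell cycle genes were higher, with a median of 0.71 and a summed signal of 130 to 251, against 117 to 180 in control mice, and their scores in selenium mice 1 to 5 were 0.61, 0.97, 0.83, 0.54 and -0.65, against 0.07, 0.52, -0.31, -0.70 and -0.36 in control mice 1 to 5. Of 11 tested neutrophil genes 9 were higher, with summed signals of 193 to 878 against 217 to 449 in control mice. The neutrophil scores were 0.26, 0.43, 1.21, 0.55 and -0.46 in selenium mice 1 to 5, against 0.19, 0.09, -0.20, -0.30 and 0.14 in control mice. Among selenium and control mice they were highest in selenium mice 2, 3 and 4, the mice with high member scores. Mouse 1 of the combination had a neutrophil score of 0.61 and a member score of -0.19.

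B and T cell markers mostly had lower means in selenium mice. The mean was lower for 12 of 13 genes that mark B cells, with summed signals of 11.8 to 27.9 against 22.3 to 54.0 in control mice, and all 13 T cell markers were lower, with 36.7 to 47.7 against 39.5 to 60.6. Plasmacytoid dendritic cells, the main producers of type I interferon, had 3 of 10 listed markers higher and 7 lower with selenium, with a median of -0.25, and their score differed by -0.29 and was lower on 5 of 5 slides. Against control that score was also lower on every slide with ptaquiloside alone, differing by -0.22, and with both compounds, differing by -0.21. The T cell score, at -0.50, and the macrophage and monocyte score, at -0.36, were likewise lower with selenium on every slide. The defining marker Siglech was detected in 5 of 5 selenium and 5 of 5 control mice and differed by -0.91. The summed signal of the 10 plasmacytoid markers was 17.8 to 27.7 in selenium mice, against 21.1 to 27.3 in control mice. Of the macrophage and monocyte markers 6 were higher and 10 lower with selenium, of the dendritic cell markers 5 were higher and 7 lower, and of the erythroid markers 7 were higher and 3 lower. The B cell scores were -0.66, -0.06, 0.12, -1.06 and -0.92 in selenium mice 1 to 5, against 0.49, 0.36, -0.27, 0.30 and 1.07 in control mice.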

How the data were processed

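The deposited scanner files hold intensity values from Agilent Feature Extraction 9.5.3.1, per the submitters' processing notes; the processed signal is background-subtracted and not scaled between arrays, per the file headers. Flag and name columns, of unit other per the file headers, marked control spots, outliers and spots well above background. The authors also deposited a table of log2 values with 20 columns, of which 2 are means of other mice. It equals the log2 processed signal plus a constant and served as an alternative, with those 2 columns left out. Its control columns, of unit other, have decimal commas as deposited.

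After control and outlier spots were left out, log2 of the processed signal was taken and each array's 75th percentile subtracted. Of 41174 probes 25097 were named through accessions in RefSeq (GRCm38.p6); the others kept the file's name or an updated symbol. Coordinates of probes are on mm9 (NCBI37), with no exon annotation used. Each gene was represented by its brightest probe well above background on at least 5 of 20 arrays. Of the 38 members 11 had several such probes. One mean per group was fitted to all 20 arrays with limma 3.58.1 (R 4.3.3, data.table in version 1.17.8), two-sided, with Benjamini-Hochberg adjustment over 17116 genes at 0.05 in each comparison. Rtp4 lacks 1 selenium value. The fit was tested on simulated data. Tables and figures used Python 3.11.15, pandas 2.3.3, numpy 2.4.6 and matplotlib 3.10.9.

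Members and lists were chosen with earlier results of these data known. Values per mouse are given for members at an unadjusted p under 0.05 in any comparison and for Ifih1, Irf7, Stat2 and Isg15; in the other interferon lists the genes named are from the 4 with the smallest p in selenium against control, some items are not reported here, and others that are named were chosen after their values were seen. The mouse number is the slide, per the file headers, so it pairs the mice. Same-numbered mice deviated together with a median correlation of 0.446 over 30 pairs, from -0.34 to 0.71, against -0.08 for other pairs, and 17 of 20 mice correlated best with their own number.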

Additional observations from a re-analysis of the deposited data

Results flagged for a closer look

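In 21 of 156 sets of 5 values (38 genes and the score in 4 groups) 1 array stood far from the others by Dixon's criterion, which chance alone would do in about 1 in 20 sets. The dim array of ptaquiloside mouse 4 accounted for 9 of them and was the lowest of its group for Trim25 (0.90), Adar (-0.12), Tap1 (-2.21), Psmb8 (-0.79), Psmb9 (1.39), Gbp2 (-0.089), Gbp3 (1.08), Parp9 (-2.18) and Ifi35 (-0.17). Mouse 5 of the combination, on the array with the second lowest 75th percentile, was the highest for Ddx58 (1.79), Stat2 (1.93) and Rtp4 (1.55) and the lowest for Samd9l (-2.17) and Gbp2 (0.36). In the same group mouse 2 had the highest score (0.18).

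Ptaquiloside mouse 3 was the lowest for Ifi27l2a (2.89) and Lgals3bp (2.80), and ptaquiloside mouse 5 for Mx2 (-2.06). Selenium mouse 4 was the highest for Stat2 (1.74), and selenium mouse 1 the lowest for Ifi27l2a (3.66). Control mouse 2 was the highest for Dhx58 (0.55). Ifi44, which was not tested, had a mean of -3.67 in selenium mice and was well above background only there, in 3 mice, for its brighter probe.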

How the results depend on the processing

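No member was called under any alternative tried, the methods' t-test included, and the smallest adjusted p of a member was 0.518, for ptaquiloside against control without ptaquiloside mouse 1. In selenium against control 34 to 37 of 38 members were higher with each mouse left out in turn. With probes above background on all 20 arrays 23 of 25 were higher, and the median stayed between 0.25 and 0.46. The members at an unadjusted p under 0.05 numbered 1 without selenium mouse 4, against 0.613% of all genes. They numbered 2 without selenium mouse 2, against 0.631%, and 2 without control mouse 5, against 0.672%. With median centring there was 1, against 0.514%. Quantile normalization and normexp gave 3 each, against 0.678% and 0.38% of all genes. With the replicate block they were 7, against 1.92% of all genes, and with the block and without ptaquiloside mouse 4 they were 9, against 5.48%. In the combination against selenium 1 to 4 members were higher without single mice, 2 with the mean of all probes and 2 without the 2 dim arrays, a setting chosen after seeing the data; the replicate block gave 7 members at an unadjusted p under 0.05, against 1.13% of all genes, and 16 without ptaquiloside mouse 4 as well, against 3.69%. The block changed no call. Ptaquiloside against control had 15 members higher, and 6 with median centring, under which the median of all genes was -0.24 there, 0.20 in the combination against ptaquiloside, -0.11 in the combination against selenium, 0.07 in selenium against control and 0.15 in the interaction; it had 23 without the 2 dim arrays, 27 with the replicate block and without ptaquiloside mouse 4, and 10 to 23 without single mice. The combination against ptaquiloside had 24 higher, and 12 in the authors' deposited table, 15 without the 2 dim arrays, 9 with the replicate block and without ptaquiloside mouse 4, and 12 to 27 without single mice. The interaction had 8 above 0, and 15 with median centring, 2 in the deposited table, 2 without the 2 dim arrays, 2 with the replicate block and without ptaquiloside mouse 4, where 12 had an unadjusted p under 0.05, against 4.15% of all genes, and 2 to 14 without single mice.

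Small differences turned in sign. Samd9l in selenium against control was 0.062 in the deposited table, 0.057 with median centring, 0.017 with quantile normalization and -0.083 to 0.094 without single mice, and Ifitm3 was 0.014 with median centring and -0.20 to 0.047 without single mice. Without single mice Ifih1 ran from -0.011 to 0.39 and Mx2 from -0.10 to 0.45, and Stat2 in the combination against selenium from -0.34 to 0.029. Where an array or mouse was left out its removal is the cause by construction. That includes the deposited table, which was used without its columns of means. Its member median equalled that without ptaquiloside mouse 4 in the combination against ptaquiloside (-0.057). In selenium against control it equalled that without control mouse 1 (0.354). For the other alternatives the cause was not tested. Signal over background limits Ifit2 and Ifi44, and the number of arrays, 5 per group, limits all results.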
